A study of Mus musculus with 8 samples.

Results

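Aminoacyl-tRNA synthetases are the enzymes that load each amino acid onto its tRNA, and this account follows their mRNAs through the in vitro neuralization of mouse embryonic stem (ES) cells. The members were the genes whose symbol on the array was a single letter followed by ars or ars2, together with Farsa, Farsb and Eprs. By this rule 37 of 36163 gene names were chosen, covered by 46 of 55681 probes. Symbols ending in 2 name the mitochondrial enzymes, of which there were 17, and the other 20 genes encode the cytosolic enzymes. Gars and Kars each encode both the cytosolic and the mitochondrial form of their enzyme and were counted as cytosolic.

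Cells charge tRNAs in separate compartments, and nearly every mitochondrial synthetase is made from a nuclear gene of its own, translated in the cytosol and imported. In the cytosol, several of the enzymes are held in a multisynthetase complex by small scaffold proteins. When amino acids run short, uncharged tRNAs activate the kinase Gcn2, and the transcription factor Atf4 then raises many cytosolic synthetase genes through promoter elements that it binds with a C/EBP partner. Argonaute (Ago) proteins carry miRNAs to mRNAs, so an mRNA recovered with Ago is a candidate for repression by the RNA-induced silencing complex.

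The cells were wild-type E14Tg2A ES cells of strain 129/Ola. They were collected as ES cells at 0 days in vitro (DIV) in medium with serum and LIF, as epiblast-like aggregates (ELA) after 2 DIV in suspension in a serum-free defined medium, as neural progenitor cells (NPC) at 6 DIV after plating on laminin, and at 10 DIV as neural precursors, termed NPC/Neu, after the B27 supplement had been withdrawn. At each of the 4 stages, 1 array held RNA immunoprecipitated from cytosolic extract with an anti-pan Ago antibody (Ago–RNA) and 1 array held total RNA, which made 8 arrays. The RNA on an array was a pool of 3 independent experiments. No condition therefore had a replicate array, no p-value could be given for a stage or a change between stages, and the medium, which also held less non-essential amino acids after ES, cannot be told apart from the stage.

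All 8 arrays lay on the same slide, and between 53.4% and 61.2% of their spots were well above background. Values are log2 signals after quantile normalization, Ago enrichment (E) is the Ago–RNA signal minus the total RNA signal of the same stage, and ΔE is its difference between consecutive stages. The only error that could be measured was the spread between spots of 399 probes printed 10 times each. It gave a spot SD between 0.21 and 0.25 for E, between 0.31 and 0.33 for ΔE and between 0.22 and 0.23 for a change in total RNA. It does not cover variation between cultures or immunoprecipitations. A value is called higher, lower, raised or reduced below where it exceeded this SD. Counts of pairs, and counts of genes that followed a course over the stages, were taken by sign alone. The signal of the ES Ago–RNA array was the highest, with an upper quartile of 3039 against 1060 to 1774 on the other arrays, and E over all genes had an SD of 0.93, 0.57, 0.73 and 1.01 from ES to NPC/Neu. The stage labels were checked on total RNA. Of 9 pluripotency markers, 8 were lower by at least 1 (log2) in NPC/Neu than in ES cells, and all 7 neural markers that passed the filter described next were higher by at least 1. From ES to ELA the primed epiblast markers Fgf5 and Dnmt3b rose by 2.81 and 1.32, and Otx2, Pou3f1 and Eomes by less than 1. From ELA to NPC Pou5f1 fell by 6.78. From NPC to NPC/Neu, however, Esrrb, Fgf4 and Zfp42 rose by 1.96, 1.56 and 1.06, and Eomes by 2.64. Of markers of other lineages, 2 of 6 for endoderm, 3 of 5 for mesoderm, 2 of 4 for trophectoderm and 4 of 5 for glia passed the filter. Among these, Foxa2, T, Kdr, Olig2 and Mbp were higher by at least 1 in NPC/Neu than in ES cells, and Krt8 and Krt18 lower by at least 1. The part of these lineages in the results was not tested. Total RNA came from mixed cultures, so fewer cells of a type and less RNA per cell cannot be told apart.

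A gene passed the filter on low signal when its mean log2 signal over the 8 arrays exceeded 7.83, the level set as the limit for detection of bound RNA. All 20 cytosolic genes and 16 of the 17 mitochondrial genes passed, among 17376 genes in all. The exception was Nars2, the mitochondrial asparaginyl-tRNA synthetase, whose probe was well above background on 1 of 8 arrays and whose log2 signals lay between 6.53 and 7.04. Counts and medians for the mitochondrial enzymes below refer to the 16 genes that passed. At every stage 36 of the 37 genes had a probe above the binding limit, Nars2 again being the exception, while 43.8%, 44.0%, 43.9% and 43.8% of all probes passed this limit from ES to NPC/Neu.

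The sequence element through which Atf4 acts was looked for in the promoters. The reason was that the members it is known to raise include those with the highest E. The choice of this element thus drew on the values of E, and a link between the element and E was not tested. The letters TGATGNAAN were searched on both strands from 250 bases before to 50 bases after the start of transcription, in promoter sequences of RefSeq (build GRCm38.p6), which held 26 of the 37 members. They were found in 5 members, and in 1215 of the 27025 genes with a promoter sequence, or 4.50%. All 5 belonged to the 12 cytosolic synthetases listed as Atf4-responsive, of which 7 had a promoter sequence. Not searched, for want of a promoter sequence, were Lars, Cars, Mars, Nars and Wars of that list. Among the other cytosolic genes the same held for Vars, Rars and Hars. None of the 14 mitochondrial promoters and none of the 5 promoters of other cytosolic synthetases held the element. The stretches around the matches are given with the matched bases in capitals, and a match on the opposite strand reads NTTNCATCA. The coordinates are those of GRCm38.p6 and the sequence is that of the gene's strand.
Aars, chr8:111033699-111033871, + strand: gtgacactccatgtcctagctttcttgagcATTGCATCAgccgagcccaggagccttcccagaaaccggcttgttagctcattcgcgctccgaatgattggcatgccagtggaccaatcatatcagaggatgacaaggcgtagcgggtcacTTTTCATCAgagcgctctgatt
Gars, chr6:55037940-55038008, + strand: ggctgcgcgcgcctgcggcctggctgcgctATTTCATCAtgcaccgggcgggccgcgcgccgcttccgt
Iars, chr13:49682106-49682159, + strand: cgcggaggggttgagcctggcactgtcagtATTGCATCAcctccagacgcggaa
Tars, chr15:11399636-11399704, - strand: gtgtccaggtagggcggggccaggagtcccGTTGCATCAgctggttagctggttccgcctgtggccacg
Yars, chr4:129189876-129189932, + strand: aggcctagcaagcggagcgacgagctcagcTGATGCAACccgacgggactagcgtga

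The 5 genes with the element encode the synthetases for alanine, glycine, isoleucine, threonine and tyrosine. In Gars the match began 31 bases before the start of transcription and in Tars 16 bases before it, whereas in Iars and Yars it began 7 and 4 bases after it. Aars held a pair of matches, beginning 113 bases before and 9 bases after the start. All 5 had E of at least 1 in ES cells, between 1.10 in Yars and 2.07 in Iars, although E of Gars was 0.66 with arrays scaled to the 75th percentile. So did Eprs, Qars and Kars among the 7 other cytosolic genes with a promoter sequence, and 11 of all 20 cytosolic genes, against 12.9% of all genes. A match is a description of the letters in the window, and binding of Atf4 was not measured.

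In ES cells the mRNAs of the cytosolic synthetases were enriched in Ago–RNA as a group, and those of the mitochondrial enzymes were much less so. E was above the spot SD in all 20 cytosolic genes, against 41.6% of all genes, and its median was 1.08, compared with 0.03 over all genes. In 9 of 16 mitochondrial genes E was above the spot SD, and the median was 0.25. Counting genes with E of at least 1, which 12.9% of all genes had, there were 11 of 20 cytosolic and 4 of 16 mitochondrial genes. The ranges of the classes overlapped, from 0.32 to 2.70 in the cytosolic and from -0.24 to 1.32 in the mitochondrial enzymes. The plot of E by stage shows both groups against the quartiles of all genes.

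**Figure D1:**
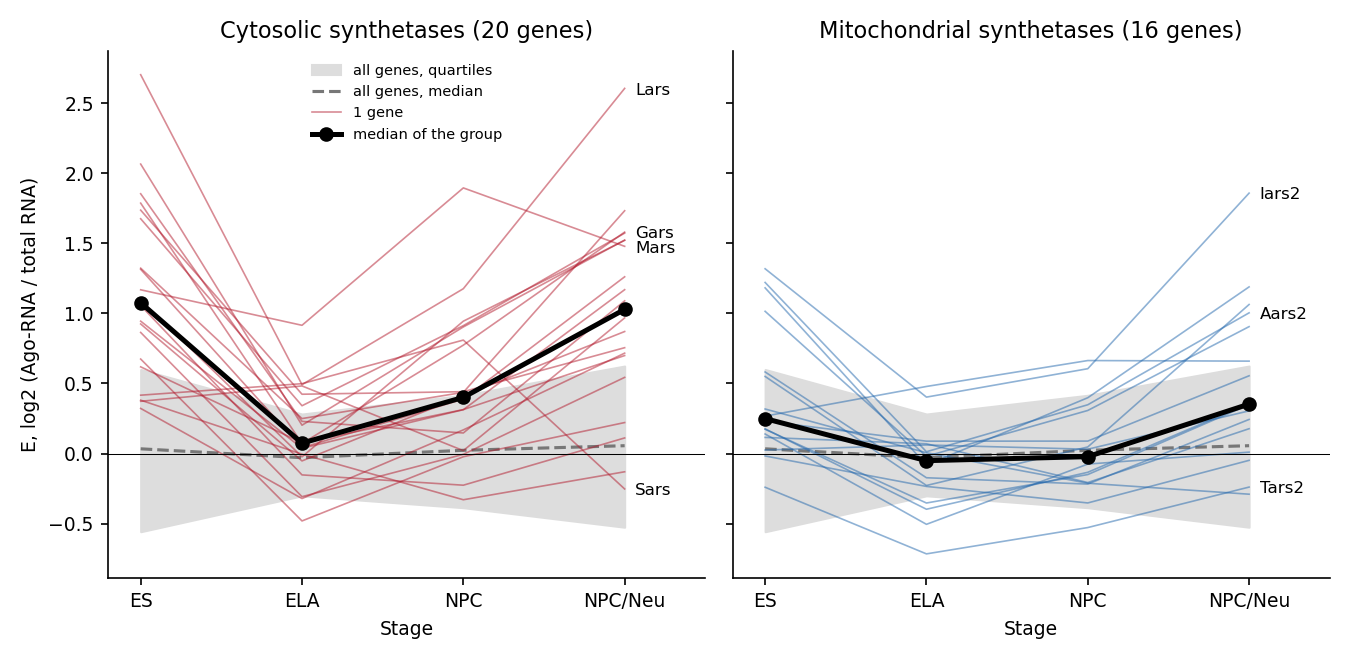
E (log2 Ago–RNA signal minus log2 total RNA signal, y axis) at the 4 stages (x axis) for 20 cytosolic (left) and 16 mitochondrial (right) synthetase genes, 1 thin line per gene, with the median of the group in black and the median (dashed) and quartiles (grey) of all genes that passed the filter. The cytosolic median ran from 1.08 in ES to 0.07 in ELA and 1.03 in NPC/Neu, and the mitochondrial median from 0.25 to -0.05 and 0.35.

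Lars, the leucyl-tRNA synthetase that also takes part in sensing leucine for mTORC1, had the highest E of all members in ES cells. Its Ago–RNA signal was 17.87, 15.44, 16 and 17.18 from ES to NPC/Neu, while its total RNA was 15.16, 14.95, 14.83 and 14.57. The Ago–RNA was thus high at both ends of the series and low in the middle, over a total RNA that changed by at most 0.26 from one stage to the next. E was accordingly 2.70, 0.49, 1.18 and 2.61. In ES cells 99.9% of all genes had a lower E. The gene lies on chromosome 18 of mm9, from 42362004 to 42421781 on the - strand, and the probe lies in its 3′ UTR.

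Iars, the isoleucyl-tRNA synthetase, is another enzyme of the multisynthetase complex (chromosome 13 of mm9, 49777469 to 49829636, + strand). Its Ago–RNA signal was 16.65, 15.16, 15.29 and 15.97 from ES to NPC/Neu, and its total RNA was 14.58, 14.96, 14.39 and 14.45. E was 2.07 in ES and 0.20 in ELA, with 0.90 and 1.52 at the later stages. The total RNA of Iars was raised by 0.37 from ES to ELA, while its Ago–RNA fell by 1.49.

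Tars and Gars, which charge threonine and glycine, followed with E of 1.85 and 1.79 in ES cells, which were 1.24 and 0.66 with processed intensity scaled to the 75th percentile. For Tars (chromosome 15 of mm9, 11313418 to 11329413, - strand) the Ago–RNA signal was 17.27, 15.46, 14.83 and 15.52, and the total RNA was 15.41, 15.23, 14.68 and 14.43. For Gars (chromosome 6 of mm9, 54987995 to 55029498, + strand) the Ago–RNA signal was 18.66, 17.06, 17.26 and 18.38, and the total RNA was 16.87, 16.99, 16.49 and 16.80. No probe of any member was saturated on any array. E of Gars came back to 1.58 in NPC/Neu, whereas that of Tars reached 1.09.

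Vars, the valyl-tRNA synthetase, was also among the highest in ES cells with E of 1.74, followed by 0.42, 0.44 and 0.76. Its Ago–RNA signal was 14.96, 13.98, 13.33 and 12.96, and its total RNA was 13.22, 13.55, 12.89 and 12.20. Unlike in Lars, the Ago–RNA of Vars was lowest at the last stage, and E had not returned to its ES level there.

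Aars, the alanyl-tRNA synthetase, was measured by probes that disagreed. One probe, which lies within the gene but had no exact match in an annotated coding transcript, with Ago–RNA signals of 17.34, 15.75, 15.53 and 17.00 and total RNA signals of 14.81, 14.93, 14.02 and 14.46, gave E of 2.53, 0.82, 1.5 and 2.55. The other probe, in the 3′ UTR, was dim, with log2 signals between 6.82 and 7.82 on the 8 arrays, and gave E of 0.82, -0.13, 0.32 and 0.60. Both probes put ELA lowest, but the size of E rests on the brighter one. The mean over the probes was 1.68 in ES cells.

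Eprs encodes the joined glutamyl- and prolyl-tRNA synthetase of the complex. Its Ago–RNA signal was 14.09, 12.82, 12.95 and 13.35 and its total RNA 12.77, 12.57, 12.51 and 11.62, so that E was 1.32, 0.25, 0.44 and 1.73. Qars, for glutamine, had E of 1.31, 0.04, 0.39 and 1.26. Kars, for lysine, had E of 1.06 in ES cells and between -0.23 and 0.11 afterwards. Yars, for tyrosine, had E of 1.10, -0.02, 0.94 and 1.52. Hars and Nars, for histidine and asparagine, had E of 0.67 and 0.86 in ES cells and of -0.48 and -0.31 in ELA. Kars and Hars thus did not regain their ES level at the last stage, and Nars, with E of 0.54 there, was also below its own. Eprs and Yars were above their ES level by more than the spot SD.

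**Figure D2:**
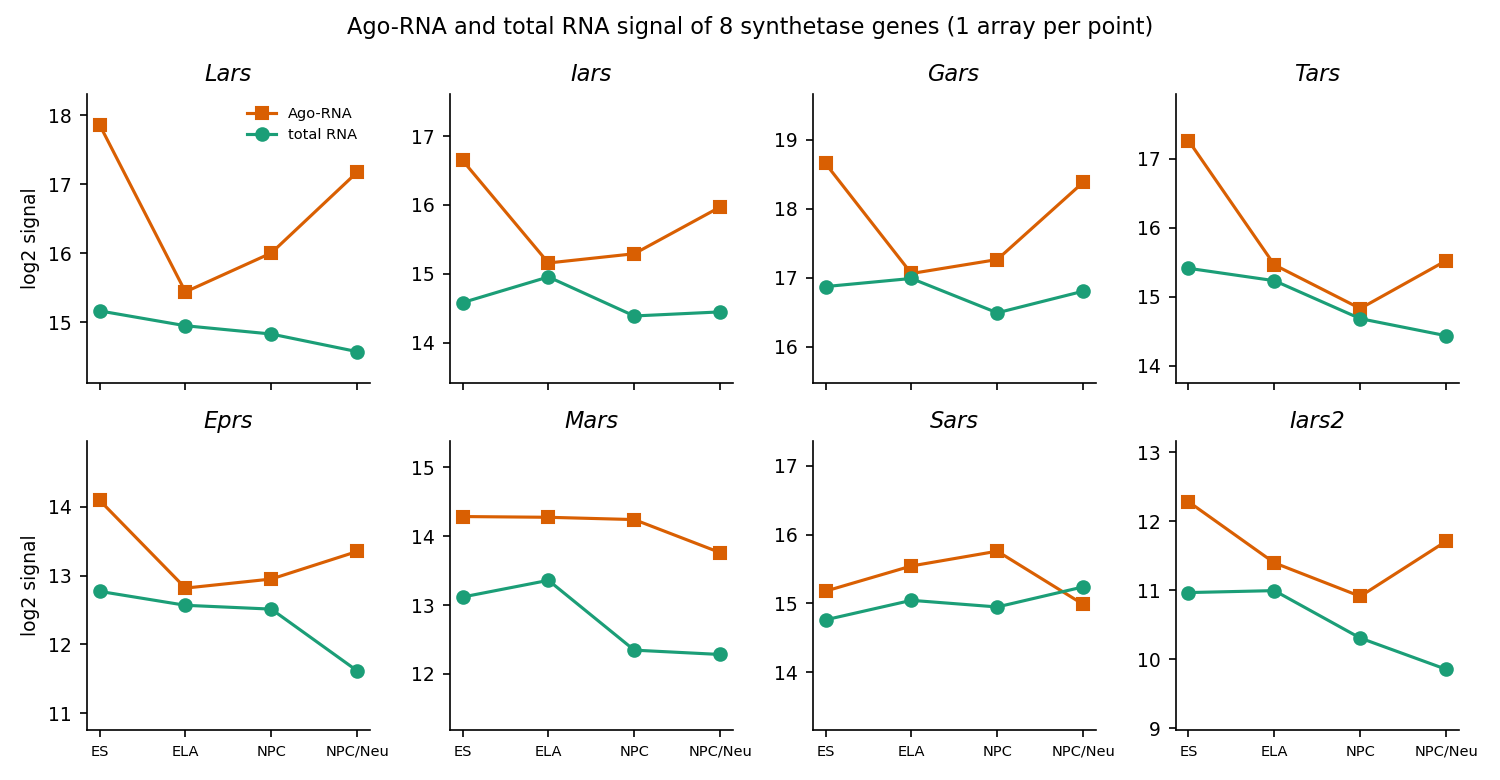
Log2 signal (y axis) of Ago–RNA (squares) and total RNA (circles) at the 4 stages (x axis) for 8 synthetase genes, 1 array per point, on y axes of equal span. In Lars the Ago–RNA goes from 17.87 in ES to 15.44 in ELA and 17.18 in NPC/Neu above a nearly level total RNA, whereas in Mars the total RNA goes down to 12.35 in NPC under a nearly level Ago–RNA.

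From ES to ELA, E of the cytosolic synthetases fell as a group while their total RNA stayed near its ES level. ΔE was below the spot SD in 17 of 20 cytosolic genes and above it in none, against 31.2% and 31.1% of all genes. Its median was -1.14, compared with -0.01 over all genes, and 5.15% of all genes had a lower ΔE than that median. ΔE of -1 or less, found in 7.46% of all genes, was seen in 12 of 20 cytosolic genes, namely Aars, Eprs, Gars, Hars, Iars, Kars, Lars, Nars, Qars, Tars, Vars and Yars. In the mitochondrial group it was seen in 3 of 16, Aars2, Lars2 and Vars2, and in 5 of 16 when the brightest probe of each gene was used. The mitochondrial median ΔE was -0.55, and 10 of 16 genes were below the spot SD. The same ES arrays enter both E in ES cells and this ΔE, so the enrichment and the fall are not separate observations. The comparison was with all genes, and not with genes of similar E in ES cells.

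The fall lay in the Ago–RNA. It was reduced beyond the spot SD in 18 of 20 cytosolic genes, against 34.6% of all genes, and total RNA stayed within 0.5 of its ES level in 19 of 20, against 73.1% of all genes. No total RNA of a member that passed the filter changed by 1 or more at this step, where 4.78% of all genes were higher and 4.32% lower by that much. The median change in total RNA was -0.02 in the cytosolic and -0.04 in the mitochondrial enzymes. The plot of both changes shows all cytosolic genes but Dars and Sars below the line of equal change.

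**Figure D3:**
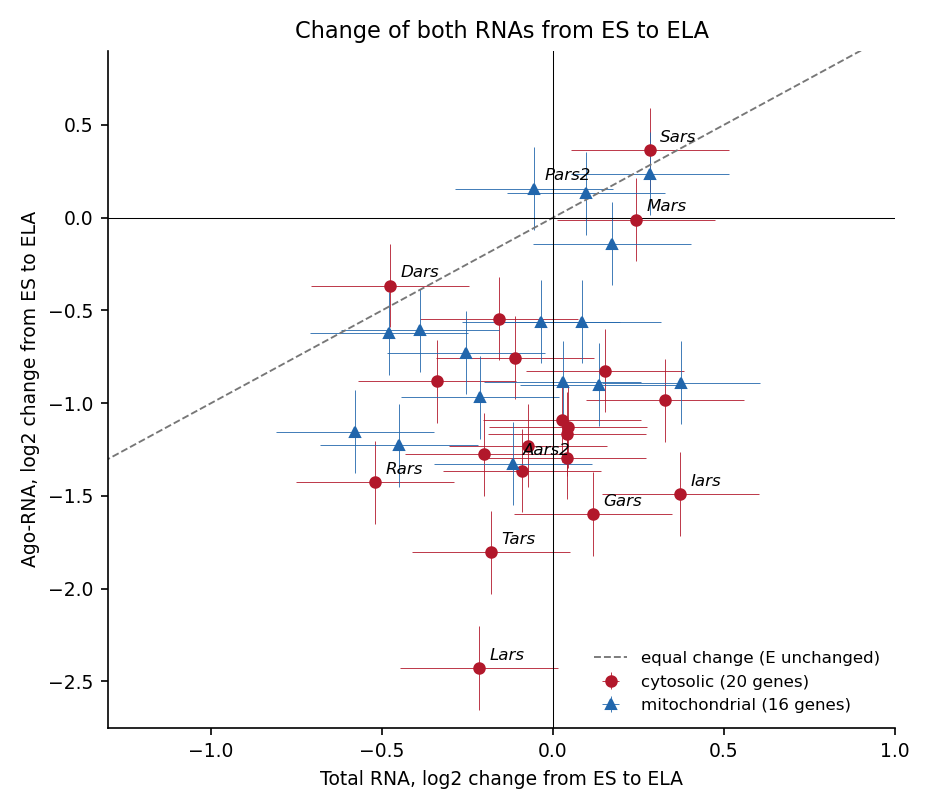
Log2 change in total RNA (x axis) and in Ago–RNA (y axis) from ES to ELA for 20 cytosolic (circles) and 16 mitochondrial (triangles) genes, with the spot SD as bars and the line of equal change dashed, on which E does not change. Lars lies lowest at -2.43 in Ago–RNA, Sars, Mars and Dars lie near the line, and total RNA spans -0.58 to 0.37.

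Dars, Sars and Mars were the 3 cytosolic genes whose E did not move beyond the spot SD at this step. Dars, the aspartyl-tRNA synthetase of the complex, had E of 0.37 and 0.48 in ES and ELA. For Sars, which charges serine, the Ago–RNA signal was 15.18, 15.54, 15.76 and 14.99, and the total RNA was 14.76, 15.05, 14.95 and 15.24. E of Sars was 0.42, 0.50, 0.81 and -0.25, so that its highest value came in NPC and its lowest in NPC/Neu, unlike in the group. Mars, the methionyl-tRNA synthetase, which also serves translation initiation by charging the initiator tRNA, had Ago–RNA signals of 14.29, 14.27, 14.24 and 13.76. Its total RNA was 13.12, 13.36, 12.35 and 12.28, and E was 1.17, 0.92, 1.90 and 1.48. Mars had the highest E of all members in ELA and in NPC, with Ago–RNA that stayed between 14.24 and 14.29 over the first 3 stages.

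The narrower spread of E over all genes in ELA, an SD of 0.57 against 0.93 in ES cells, moved with this fall. In units of that SD and relative to the median of all genes, the cytosolic median went from 1.12 in ES to 0.18 in ELA, then to 0.52 and 0.97 at the later stages. The mitochondrial median was 0.23, -0.04, -0.06 and 0.29 in the same units. This scale was added after the data had been seen, and an SD depends on extreme values. The quartiles of E over all genes were -0.56 and 0.60 in ES cells, and -0.30 and 0.28 in ELA. The part of the narrower spread in the cytosolic fall was not tested.

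The study called an mRNA released when a bound probe had E of at least 2 at one stage, at most 0.5 at the next, and ΔE of at least 1.5 in size. Probes with E of at least 2 made up 1.17% of bound probes in ES cells, and among the members they belonged to Aars, Iars and Lars. In ELA and NPC no member reached 2, where 0.600% and 0.631% of bound probes did, and in NPC/Neu, with 1.93% of bound probes, Aars, Iars2 and Lars reached it. By the full rule Iars and Lars were released from ES to ELA, as were 0.192% of all probes. Both calls lay within the spot SD of a limit. E of Lars was 0.49 in ELA, and E of Iars was 2.07 in ES cells. Under the percentile scaling described below, E of both genes in ES cells was below 2, so neither met the rule. The bright Aars probe was just outside with E of 0.82 in ELA, and was called with a limit of 1.2 for the later stage, under which 0.304% of all probes were called. From NPC to NPC/Neu no member was called loaded, the reverse change, with the limit of 0.5, where 0.0361% of all probes were. With the limit of 1.2 a probe of Iars2 was loaded at that step, as were 0.0938% of all probes.

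After ELA the enrichment of the cytosolic enzymes came back in steps. The median ΔE was 0.33 from ELA to NPC and 0.56 from NPC to NPC/Neu, compared with 0.03 over all genes at both steps. ΔE was above the spot SD in 10 of 20 cytosolic genes at the first of these steps, against 24.4% of all genes, and in 15 of 20 at the second, against 28.4%. No member changed E by 1 or more from ELA to NPC, where 1.90% of all genes gained and 3.51% lost that much. From NPC to NPC/Neu, where 2.27% of all genes gained at least 1, E rose by 1.43 in Lars and 1.30 in Eprs, and among the mitochondrial enzymes by 1.25 in Iars2. At that step, where 4.59% of all genes lost at least 1, it fell by 1.06 in Sars.

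In NPC/Neu the cytosolic median E was 1.03, and 10 of 20 genes had E of at least 1, against 13.6% of all genes. In NPC the median was 0.40 with 2 genes at 1 or more, Mars and Lars, against 6.57% of all genes, and in ELA no member reached 1, against 4.21%. E was lowest of the 4 stages in ELA in 15 of 20 cytosolic and 10 of 16 mitochondrial genes, against 31.4% of all genes. By sign alone, a lower E in ELA than in ES together with a higher E in NPC/Neu than in NPC was found in 17 of 20 cytosolic and 13 of 16 mitochondrial genes, against 37.7% of all genes. Between the first and the last stage the cytosolic median ΔE was -0.10. The members that lost most over this span were Vars, whose E fell by 0.98, and Kars, whose E fell by 0.94.

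Among the mitochondrial enzymes, Iars2, Aars2 and Vars2 had the highest E in ES cells. Aars2, the mitochondrial alanyl-tRNA synthetase, had Ago–RNA signals of 13.98, 12.66, 12.56 and 12.83 and total RNA signals of 12.76, 12.64, 12.22 and 11.82. Its E was 1.22, 0.01, 0.35 and 1.00, a course like that of the cytosolic group. Vars2, for valine, had E of 1.18, -0.08, 0.40 and 1.19, and its probes lay within 0.24 of each other at every stage. Lars2, for leucine, had E of 1.01, -0.02, 0.31 and 0.91. These 3 genes were the mitochondrial members whose E, averaged over probes, fell by at least 1 from ES to ELA, and the brighter probes of Iars2 and Tars2 fell by 1.26 and 1.13.

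Iars2, for isoleucine, was measured by a pair of probes in its coding sequence that differed by 1.16 in ELA and by 1.5 in NPC/Neu. The probe nearer to the 3′ end gave E of 1.08, -0.18, 0.18 and 1.11, and the other gave 1.56, 0.98, 1.03 and 2.61. Both were highest at the ends of the series, yet only the probe nearer to the 3′ end came down to about 0 in ELA.

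Tars2, Cars2 and Fars2 had the lowest E in ES cells among the mitochondrial genes that passed the filter. The Tars2 probe in the coding sequence gave E of -0.99 and that in the 3′ UTR gave 0.51 in ES cells, while at the other stages they lay within 0.29 of each other. Cars2 had E of -0.02, -0.23, -0.35 and -0.05, and Fars2 had 0.03, 0.06, 0.03 and 0.30. Fars2, for phenylalanine, was with Hars2, Wars2 and Sars one of 4 members whose total RNA was higher in NPC/Neu than in ES cells, by 0.43. The probes of Wars2 went opposite ways over this span, with changes of 1.35 and -0.29. The second change came from a dim probe, with total RNA of 7.82 in ES and 7.53 in NPC/Neu. In Pars2, for proline, the probes lay within 0.30 until NPC and then gave 0.11 and 1.21 in NPC/Neu. The lower value came from a dim probe with signals of 7.47 and 7.36 there.

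Wars, Dars and Farsb had the lowest E in ES cells among the cytosolic genes, at 0.32, 0.37 and 0.38. The probes of Wars, for tryptophan, both lie in its 3′ UTR. The one near the end of the transcript gave E of 0.76, -0.04, 0.48 and 1.52, and the one farther upstream gave -0.11, -0.61, -0.14 and -0.09. The total RNA of the upstream probe fell by 1.2 from ELA to NPC, where that of the other fell by 0.45. Farsb, the beta subunit of the cytosolic phenylalanyl-tRNA synthetase, had E of 0.38, -0.00, -0.33 and -0.13, and did not regain enrichment. Its partner Farsa, the alpha subunit, had E of 0.62, 0.08, 0.31 and 0.70.

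Comparing the enzymes for the same amino acid removed differences between amino acids. There were 17 such pairs, with Eprs set against both Ears2 and Pars2 and Farsa set against Fars2. In ES cells E was higher in the cytosolic enzyme in 16 of 17 pairs, with a median difference of 0.75, and in the remaining pair, not reported individually here, it was lower. In the pairs for serine and tryptophan the values lay within their spot SDs of each other. The largest difference was 2.09, between Tars and the mean of the Tars2 probes, which gave -0.99 and 0.51, and the next was 1.69, between Lars and Lars2. Against the brighter Tars2 probe alone, at 0.51, Tars would come after Lars. By sign alone, the cytosolic enzyme was higher in 13 of 17 pairs in ELA, with a median difference of 0.33, in 15 in NPC (0.45) and in 14 in NPC/Neu (0.57). Some of these differences were inside the spot SD, such as 0.02 in ELA for both Farsa against Fars2 and Hars against Hars2. ΔE from ES to ELA was lower in the cytosolic enzyme in 15 of 17 pairs, with a median difference of -0.55. Changes in total RNA at that step were split, with the cytosolic enzyme higher in 9 pairs and lower in 8. The pairs share arrays and, through Eprs, a member, and the count includes Nars2, which was not well above background on 7 of the arrays.

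**Figure D4:**
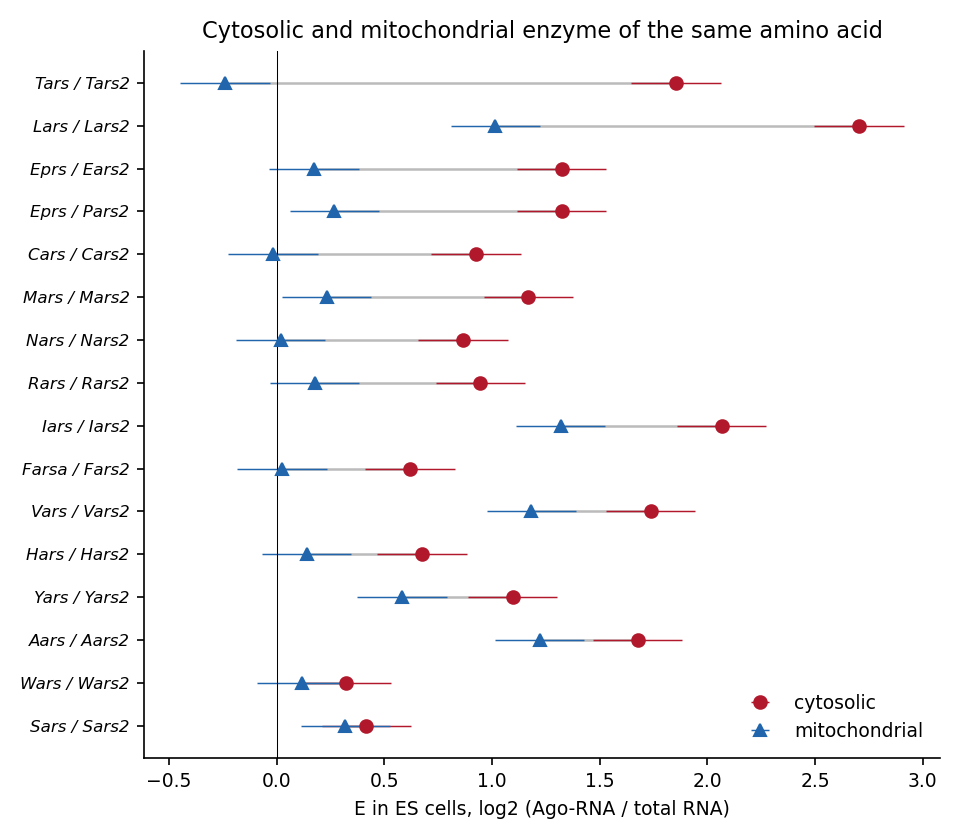
E in ES cells (x axis, log2) of the cytosolic (circle) and the mitochondrial (triangle) enzyme of 16 of the 17 pairs for the same amino acid (y axis), with the spot SD as bars, ordered by the difference. The cytosolic enzyme lies to the right in the 16 pairs drawn, and the pair left out is the one in which it was lower.

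E rose with the length of the transcript across genes, so length was set beside the difference between the classes and the fall from ES to ELA. Across 12576 genes the Spearman correlation of E in ES cells with the longest annotated transcript was 0.62, and it was 0.47 across the 20 cytosolic and 0.51 across the 16 mitochondrial genes. For ΔE from ES to ELA the correlation with length was -0.49 across 12547 genes. It was -0.28 across the cytosolic and -0.52 across the mitochondrial genes. With mean log2 signal, the correlation of E in ES cells was 0.39 across the cytosolic, -0.19 across the mitochondrial and -0.045 across all genes. For ΔE from ES to ELA the correlation with signal was -0.45, -0.12 and 0.03 in the same order. These are correlations across genes on the same arrays, and genes are not independent replicates. The median length was 2936 bases in the cytosolic, 3184 in the mitochondrial and 2947 in all genes, and the cytosolic transcript was the longer one in 9 of 17 pairs. After the median E of all genes in the same of 10 length classes was subtracted, the cytosolic median in ES cells was 0.91 and the mitochondrial median 0.24. In ELA the medians after this subtraction were 0.08 and -0.07.

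The 12 synthetases listed as Atf4-responsive (Aars, Cars, Eprs, Gars, Iars, Lars, Mars, Nars, Sars, Tars, Wars and Yars) were set against the other 8 cytosolic ones. In ES cells their median E was 1.25 against 0.81, and in ELA it was 0.22 against 0.04. In NPC/Neu it was 1.5 against 0.73. E of at least 1 was found in 8 of 12 against 3 of 8 genes in ES cells, with 12.9% of all genes, and in 8 of 12 against 2 of 8 in NPC/Neu, with 13.6% of all genes. The ranges overlapped at each of these stages. The listed 12 were also longer, with a median transcript of 3092 bases against 2210 in the other 8, and the part of length in this difference was not tested. Other genes of the Atf4 amino acid response, of which 29 of 32 passed the filter, had a median E of 0.04 in ES cells and 0.29 in NPC/Neu. Only Slc38a2, a glutamine and neutral amino acid carrier, and Aldh18a1, an enzyme of proline synthesis, were at 1 or more among them in ES cells. Slc38a2 had E of 2.01, -0.06, 0.49 and 1.41 over the 4 stages. Aldh18a1 had 1.14, -0.11, 0.33 and 0.34, so both were low in ELA, and of this pair Slc38a2 came back above 1 in NPC/Neu.

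Total RNA of the synthetases declined after ELA. From ELA to NPC it was lower beyond the spot SD in 15 of 20 cytosolic and 10 of 16 mitochondrial genes, against 36.2% of all genes, with medians of -0.53 and -0.40. Only Mars and Cars2 were lower by at least 1 at this step, by 1.01 and 1.18, against 10.9% of all genes. Cars2 had total RNA signals of 11.52, 11.13, 9.95 and 10.02 over the 4 stages. From NPC to NPC/Neu no cytosolic member was lower by at least 1, against 4.88% of all genes.

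From ES to NPC/Neu the median change in total RNA was -0.79 in the cytosolic and -0.87 in the mitochondrial enzymes, compared with -0.07 over all genes. It was -1 or less in 7 of 20 and in 7 of 16 genes, against 19.2% of all genes. From NPC to NPC/Neu the median change was 0.03 in the Atf4-responsive list and -0.55 in the other cytosolic genes. At that step 3 of the 12 listed genes were higher and 3 lower beyond the spot SD, while of the other 8 none was higher and 6 were lower, against 28.1% and 36.8% of all genes. Over the whole course 6 of those 8 and 1 of the 12 listed genes, Eprs, were lower by at least 1. This split depends on the cutoff, because several genes lay close to it. Just past it were Farsa, Kars (-1.02), Vars (-1.02) and Dars (-1.04), while the listed Tars (-0.98) and Wars (-0.96) just missed it. The median change over this span was -1.02 in the other 8 and -0.55 in the 12 listed genes. Sars, with a change of 0.48, was the only cytosolic member above its ES level in NPC/Neu.

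**Figure D5:**
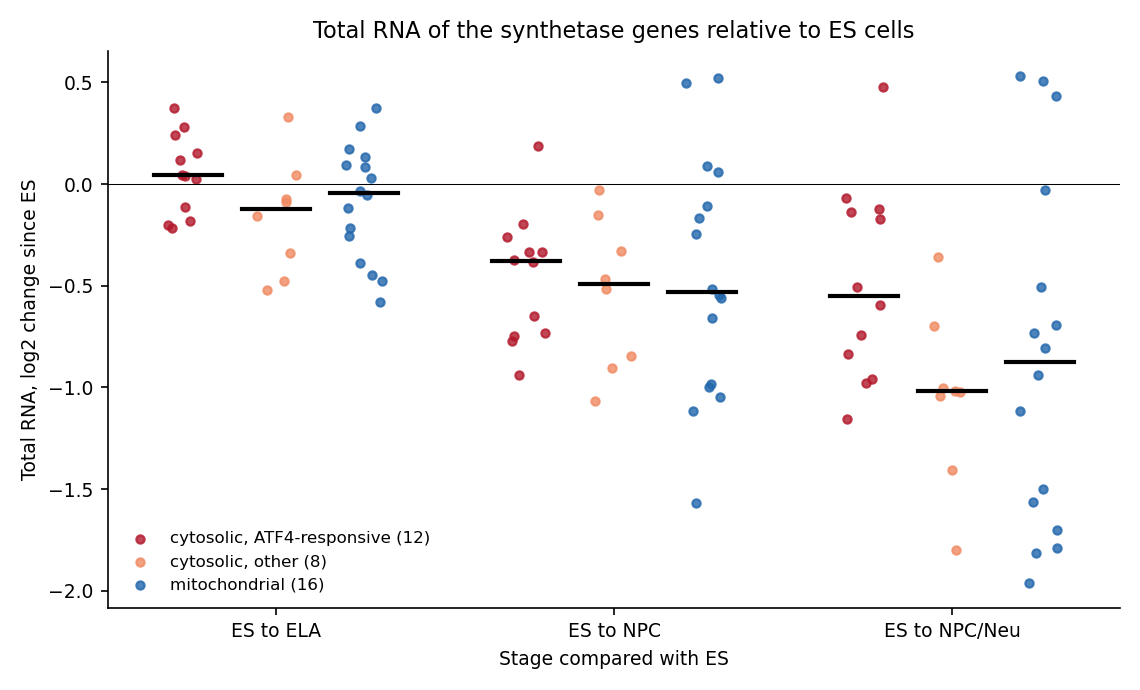
Log2 change in total RNA since ES (y axis) in ELA, NPC and NPC/Neu (x axis) for 12 Atf4-responsive cytosolic, 8 other cytosolic and 16 mitochondrial synthetase genes, 1 point per gene with the median as a bar and horizontal scatter for legibility only. In NPC/Neu the medians lie at -0.55, -1.02 and -0.87, and Sars is the one cytosolic gene above 0.

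The 8 enzymes of the multisynthetase complex (Dars, Eprs, Iars, Kars, Lars, Mars, Qars and Rars) had a median E of 1.24, 0.23, 0.41 and 1.37 from ES to NPC/Neu. Of these, 6 had E of at least 1 in ES cells, against 12.9% of all genes. The 3 scaffold proteins of the complex had lower values. Aimp1, Aimp2 and Eef1e1 had a median E of -0.14 in ES cells and -0.75 in NPC/Neu, and E of Eef1e1 was -1.47, -0.49, -1.07 and -2.07. E of Aimp2 was 0.20 in ES, -0.12 in ELA and 0.10 in NPC/Neu, with no value in NPC. Its ΔE from ES to ELA did not exceed the spot SD. The cytosolic synthetases of class I and class II, which differ in the fold of the catalytic domain, had medians of 1.17 and 0.77 in ES cells and of -1.12 and -1.16 for ΔE from ES to ELA. Eprs, the joined enzyme, was in neither of these lists.

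Relatives of the synthetases and factors that edit or modify charged tRNAs (16 genes) had a median E of 0.20 in ES cells, with none at 1 or more, against 12.9% of all genes. Among them E of Secisbp2, which takes part in reading selenocysteine codons, fell by 1.26 from ES to ELA. Translation elongation factors, 9 of 10 of which passed the filter, had a median E of 0.50 in ES cells. Eef2, the factor that moves the ribosome along the mRNA, was the only one of these at 1 or more in ES cells, and its E was 1.30, 0.20, 0.62 and 0.85.

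Since Ago is guided by miRNAs, the 3′ UTRs of the members were searched for the site shared by the miR-290 and miR-302 families. As background, the first is abundant in naive ES cells and the second in the primed epiblast state. The levels of these miRNAs were not analysed here. This search was added after the values of E had been seen. Examples of mature sequences that share the seed are given from RefSeq (build GRCm38.p6), with bases 2 to 8 in capitals.
mmu-miR-291a-3p: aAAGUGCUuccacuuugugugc
mmu-miR-294-3p: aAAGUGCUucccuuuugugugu
mmu-miR-295-3p: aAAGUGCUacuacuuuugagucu
mmu-miR-302b-3p: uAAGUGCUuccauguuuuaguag
mmu-miR-302d-3p: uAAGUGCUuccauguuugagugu

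The complementary letters AGCACTT occurred in the annotated 3′ UTR of 2 of 20 cytosolic genes, Cars and Eprs, and in 5 of 16 mitochondrial genes, against 16.1% of 12366 genes. The median 3′ UTR was 526 bases long in the cytosolic, 1022 in the mitochondrial and 1126 in all genes. Lars, Iars, Aars, Gars, Tars and Vars, with the highest E, held no match, which says only that these letters are not in that stretch. The matches in Eprs, Aars2 and Iars2, members with E of at least 1 in ES cells, are given with the site in capitals and the bases next to it on both sides, from the transcripts of build NCBIM37.
Eprs, base 53 of the 3′ UTR: atggcctgcccAGCACTTcctcagcctga
Aars2, base 276 of the 3′ UTR: cagtggttaagAGCACTTgttgttcatag
Iars2, base 2128 of the 3′ UTR: tcacacttgtcAGCACTTggactgctcta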

How the data were processed

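Total RNA and Ago-immunoprecipitated RNA were hybridized to Agilent one-color mouse arrays (mm9 annotation), 1 array per stage and fraction. The authors deposited spot intensity from Feature Extraction (10.7.3.1 in the file headers, 9.1 in the labels' processing notes), not normalized between arrays. Local background was taken off the mean signal by normexp (offset 50; limma 3.58.1, R 4.3.3). Spots marked as irregular were dropped, the 8 arrays were brought to a common distribution by quantile normalization on the log2 scale, which removes differences in total recovery, and repeated spots were averaged. For the binding limit, 2 Gaussian components were fitted to each Ago–RNA array (mclust 6.1.1), and 3 SD were added to the mean of the dimmer one. The mean of its 4 values was the filter on genes, whose probes were averaged. Python 3.11.15 with numpy 2.4.6 and pandas 2.3.3 gave the remaining values. The labels state 50 ng of RNA per labeling, and the paper's methods another amount.

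No condition has a replicate, so no test was run. Precision is set by the number of arrays. The members and gene lists were chosen with earlier results of these data known. Named genes are members whose total RNA or E changed by at least 1 between consecutive stages, the 3 highest and 3 lowest in E in ES cells of each class, Gars and Kars, members with probes that differ by over 1 in E, and genes of the other lists that changed by at least 1, at most 6 a list. Cars, Rars and Farsa, and the listed genes that did not change, are named for completeness beside their list. Transcripts and gene positions were those of GENCODE on build NCBIM37, the build of the array annotation. The alternatives were other offsets, processed intensity, other scalings, probe choices and filters. The normalization was tested on simulated data. For 1 member the individual values are not reported here, and it is kept in the counts and medians.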

Additional observations from a re-analysis of the deposited data

How the results depend on the processing

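In all, 14 alternatives were run on 28 group results (medians of E, of ΔE and of changes in total RNA, differences between the classes, and counts past the fold), and 299 of the resulting values moved by less than the spot SD or, for counts, by at most 1.5 times, while 3 moved further. No median above 0.3 in size changed sign. With the processed intensity scaled to the 75th percentile, the difference between the cytosolic and mitochondrial median E in ES cells was 0.60 in place of 0.83. The number of mitochondrial genes with a fall of E past the fold from ES to ELA was 5 with the brightest probe of each gene and 7 with a fold of 1.5 times, in place of 3. With the brightest probe, Iars2 and Tars2 were added, with ΔE of -1.26 and -1.13, against -0.92 and -0.48 as means over probes. The lower fold takes in more genes by construction. The cause of the shift under scaling to the 75th percentile was not tested. Scaling to the 75th percentile moved the median E of all genes by -0.24 in ES cells, and normalization within each kind of RNA moved it by 0.23. Values under these scalings are relative to that shift. The number of cytosolic genes past the fold ranged from 9 to 16 in ES cells and from 10 to 15 for the fall to ELA. After the median of genes of similar length was subtracted, the difference between the classes in ES cells was 0.67, and after that of genes of similar signal it was 0.88. For single genes, 242 values moved by less than the spot SD and 28 by more, among them Aars with only the bright probe (E of 2.53 in ES cells) and Gars, Lars and Iars under scaling to the 75th percentile (0.66, 1.92 and 1.62). Scaling each stage by its SD, leaving out genes whose probes differ and applying the length subtraction to ΔE were added after the data had been seen.

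No paired analysis was possible because no stage has a replicate array. Ago–RNA and total RNA of a stage are set against each other in E, and a test of E that takes the 4 stages as replicates was not run. Precision is limited by the single array per condition. The spot SD covers noise within an array only, and for most members a single probe stands for the gene. Nars2 and the second Aars probe lie close to background, and the dimmer probes of Pars2 and Wars2 have low signal.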
